A study of Mus musculus with 4 samples.

Results

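Tight junction, cell polarity and connexin genes were examined in terminal end buds, the swollen tips from which mammary ducts grow at puberty, with and without Ovol2, a zinc finger repressor that keeps epithelial cells from turning mesenchymal. The genes were chosen by symbol: the claudins, the occludin family with Lsr, the junctional adhesion molecules, junctional scaffold genes, the Crumbs, Par and Scribble polarity genes, and the connexins. The rule took 60 genes of the 19938 genes measured, and 37 of the 60 were bright enough to be tested. RNA from physically isolated end buds of female C57/BL6 littermates was hybridised to 4 single-colour Affymetrix arrays. The 2 control arrays held 2 mice each, labelled Ovol2flox/+, which the protocol gives with or without K14-Cre. The 2 knockout arrays held 3 mice each, labelled Ovol2flox/-;K14-Cre. Age was 4.5 weeks by the labels but 24 to 25 days by the series text. All mice carried a floxed Ovol2 allele. The keratin 14 promoter drives Cre in basal epithelium and skin, and how many luminal cells lost the floxed allele was not measured here, while the null allele was present in every cell of the knockout mice. Each array was a separate pool, so the spread between arrays is that between pools.

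Claudins are membrane proteins that join into strands between neighbouring epithelial cells, and their mix sets how tightly the gap is sealed and which ions pass. Occludin and its relatives join those strands, Lsr and Marveld2 close the corners where cells meet, and Tjp and cingulin proteins tie the strands to the actin cortex. The Crumbs and Par complexes set up the apical side and the Scribble complex the basolateral side, and connexins form the gap junction channels. In the mammary gland tight junctions seal the lumen between luminal cells, whereas basal cells are known for other junctions and for connexin channels.

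Array medians of the deposited linear signal lay between 252 and 272. Values below are log2(signal + 16) after quantile normalization, a difference is knockout minus control on that scale, and a value after ± is its SE from limma with n = 2 arrays per group. A gene is said to have risen or fallen where limma's adjusted p over all 11963 tested genes was under 0.05. Ovol2 itself read 8.05 and 8.31 in controls, against 7.85 and 7.73 in knockouts (difference -0.39 ± 0.16, limma adjusted p = 0.17), and its probes need not lie in the deleted part. Its knockout mean of 7.79 was under the mean of 7.97 needed for a test, where signals could not be told from background. The tissue label was checked against epithelial markers: Epcam read between 12.23 and 12.37 and Krt8 between 13.57 and 13.65 on the 4 arrays. As a whole RNA sample holds many cells, fewer cells of a type and less RNA per cell cannot be told apart here.

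Jam2, Cldn5 and Cldn8 rose, Cldn6 and Lsr fell, and 32 of the 37 tested members did not pass. The 3 that rose are set against 6.29% of all tested genes, and the 2 that fell against 4.45%. As shares of the tested members these are 8.11% and 5.41%, near that background. On both knockout arrays 14 members lay below both controls, which was 37.8% against 29.9% of all tested genes, and 6 lay above both, 16.2% against 26.4%. The median difference was -0.06 over the tested members and -0.02 over all tested genes. Single arrays decided the counts: without control replicate 1, 1 rose and 1 fell, without control replicate 2, 3 rose and 0 fell (limma, 7 lower at an unadjusted p under 0.05), without knockout replicate 1, 3 rose and 8 fell, and without knockout replicate 2, 3 rose and 1 fell. With no mean-variance trend in the variance prior of limma, 0 rose and 0 fell, with 3 higher and 7 lower at an unadjusted p under 0.05.

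**Figure D1:**
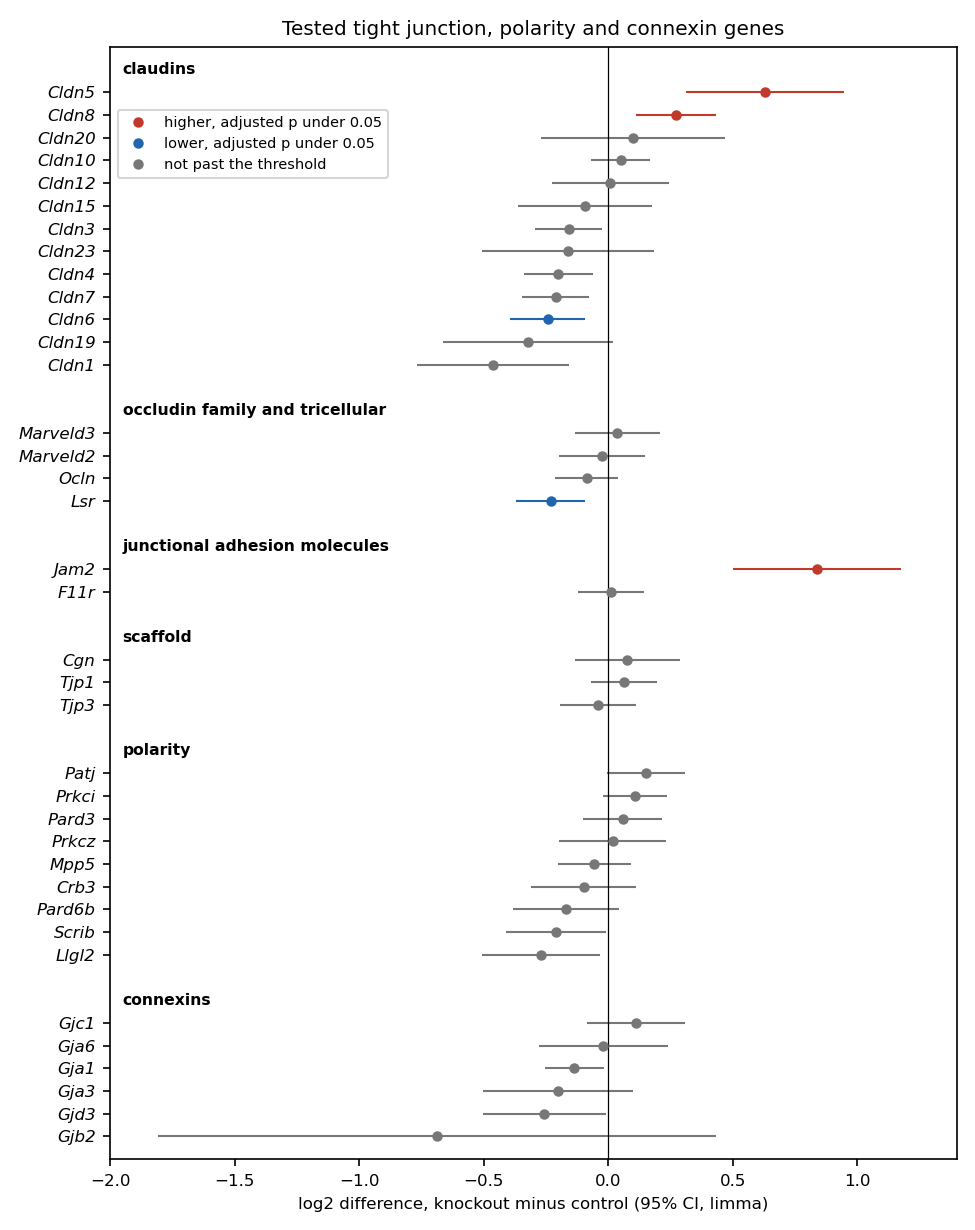
Log2 difference, knockout minus control, of the 37 tested members by role, with 95% confidence intervals from limma (n = 2 arrays per group). Jam2, Cldn5 and Cldn8 lie right of 0 past the threshold, Cldn6 and Lsr left of it, and the interval of Gjb2 is the widest, from -1.81 to 0.43.

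Cldn1, Cldn3, Cldn4, Cldn6 and Cldn7, some of the claudins of epithelial cells, lay lower on both knockout arrays than on either control. Their group means were lower by 0.16 to 0.46, but of these only Cldn6 passed the test. Cldn8 rose, and the groups overlapped for Cldn10, Cldn12, Cldn15 and Cldn20. Of 23 claudins on the array 13 were tested. 2 rose, 1 fell and 10 did not pass. The median difference of the 13 was -0.16, and 7 lay below both controls on both knockout arrays (53.8%, against 29.9% of all tested genes). Cldn6, a claudin typical of embryonic epithelia, read 10.37 and 10.40 in controls, against 10.19 and 10.09 in knockouts. It fell by 0.24 ± 0.07 (1.18-fold, limma adjusted p = 0.0455). Without 1 array at a time it passed only without knockout replicate 1 (-0.29). Without control replicate 1 it was -0.26, without control replicate 2 -0.23 and without knockout replicate 2 -0.20.

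Cldn4, a barrier claudin of many glands, read 12.58 and 12.69 in controls, against 12.51 and 12.36 in knockouts. Its difference was -0.20 ± 0.06 (limma adjusted p = 0.0706), and it passed without control replicate 1 (-0.26) and without knockout replicate 1 (-0.28). Cldn3, its neighbour in the genome and also a sealing claudin, read 11.06 and 11.14 against 10.98 and 10.90. Its difference of -0.16 ± 0.06 did not pass (limma adjusted p = 0.127). With 1 array left out at a time it passed only without knockout replicate 1 (-0.20), and it also passed with the replicate number as a block (limma adjusted p = 0.0378). Both genes thus lay lower on each knockout array than on either control, with knockout replicate 2 the lower of the pair.

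Cldn7, which also occurs along the basolateral membrane of epithelial cells, read 11.20 and 11.19 in controls, against 11.05 and 10.92 in knockouts. The difference was -0.21 ± 0.06 (limma adjusted p = 0.0533), and it passed without knockout replicate 1 (-0.27). Cldn1, the claudin needed for the water barrier of the skin, read 10.26 and 10.41 against 10.12 and 9.62, the widest gap between knockout arrays among these 5 claudins, and its difference was -0.46 ± 0.14 (limma adjusted p = 0.0601). It was -0.72 and passed without knockout replicate 1, and it was -0.21 and did not pass without knockout replicate 2. Cldn1, Cldn3 and Cldn7 lie outside the naming rule and were chosen after their values were seen.

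Cldn8 went the other way. This claudin of tight epithelia such as the distal kidney tubule read 10.93 and 11.15 in controls, against 11.31 and 11.30 in knockouts. It rose by 0.27 ± 0.07 (1.21-fold, limma adjusted p = 0.0414). The knockout arrays agreed closely and the control arrays did not: without control replicate 1 the difference was 0.16 and did not pass (limma adjusted p = 0.268), and without control replicate 2 it was 0.38 and passed. The 5 pan-epithelial markers Epcam, Cdh1, Krt7, Esrp1 and Grhl2 had a mean difference of -0.05, with 0 of 5 past limma's threshold (1 at an unadjusted p under 0.05) and summed signals of 22067 and 22084 in controls, against 21889 and 21304 in knockouts. Relative to the mean of those markers on the same array, Cldn8 was 0.32 higher in the knockout, and Cldn6, Cldn7, Cldn4 and Cldn3 had differences of -0.20, -0.16, -0.15 and -0.11. When all arrays were shifted to equal levels of those markers, the call of Cldn8 held (limma adjusted p = 0.0265) and that of Cldn6 did not (limma adjusted p = 0.0801). These values depend on the list used. The 10 luminal markers had a mean difference of 0.11, opposite in sign to the pan-epithelial list, and scaling to them was not run. With median centring Cldn8 and Cldn6 did not pass (limma adjusted p = 0.314 and 0.34), nor did they with no filter.

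**Figure D2:**
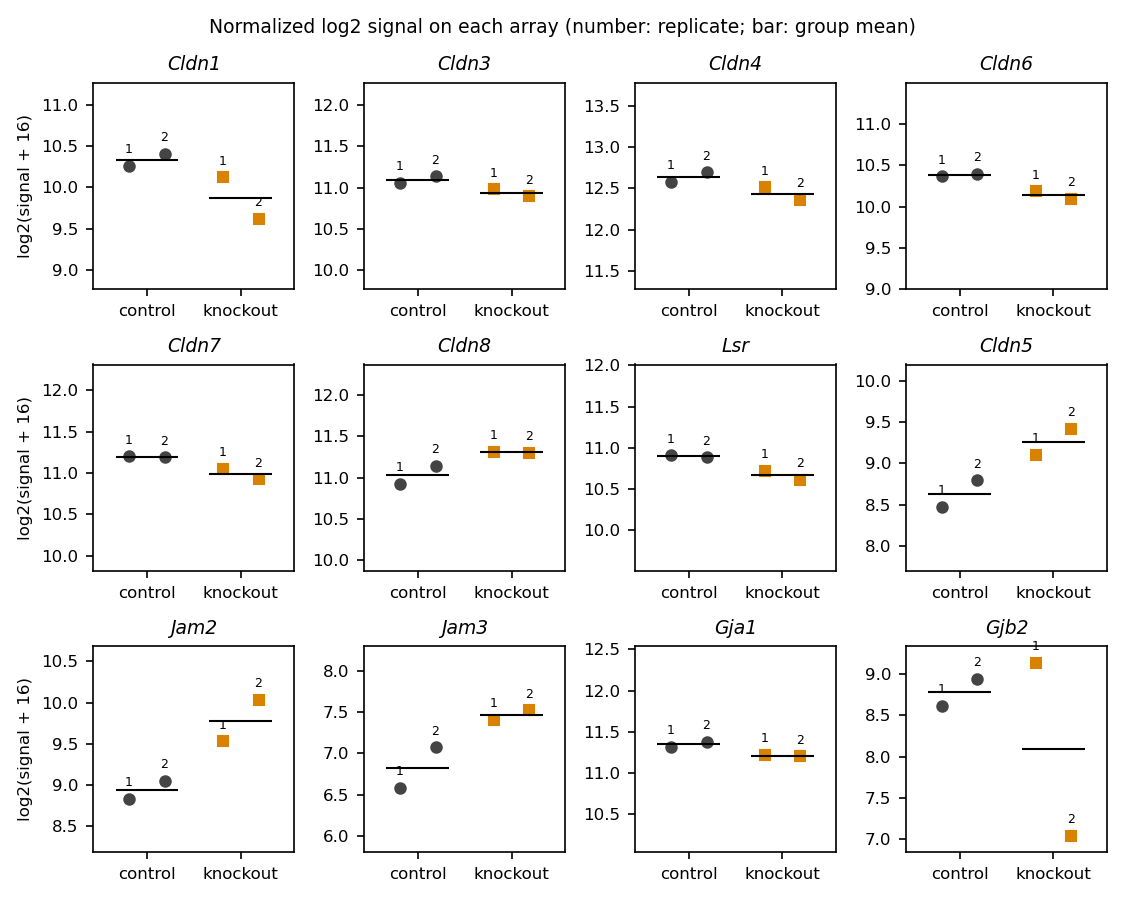
Normalized log2 signal of 12 members on each array (circles, controls; squares, knockouts; numbers, replicates; bars, group means; every vertical axis spans the same log2 range). Cldn1, Cldn3, Cldn4, Cldn6, Cldn7, Lsr and Gja1 lie lower on both knockout arrays, Cldn8, Cldn5, Jam2 and Jam3 higher, and Gjb2 lies low on knockout replicate 2 alone.

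The other tested claudins did not pass. Cldn10, which forms ion channels, read 11.64 and 11.57 in controls, against 11.68 and 11.63 in knockouts (difference 0.05 ± 0.05). The difference was -0.09 for Cldn15, a pore-forming claudin of the gut, 0.01 for Cldn12, -0.16 for Cldn23 and 0.10 for Cldn20. Cldn19, known from kidney and from Schwann cells, was -0.32 ± 0.15, with both knockout arrays below the controls. Cldn23 and Cldn20 each had 1 group mean under the filter of 7.97. The 10 claudins under the filter were Cldn2, Cldn9, Cldn11, Cldn13, Cldn14, Cldn16, Cldn17, Cldn18, Cldn22 and Cldn24. Their differences ran from -0.23 to 0.28, below 0 in 9 of 10, and signals this dim could not be told from background.

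Promoter windows of the members were read from RefSeq, build GRCm38.p6, from 250 bases before to 50 bases after each annotated start, since several claudins and Lsr lay lower on both knockout arrays. A window was given for 46 of the 60 members. Jam2 and Cldn8, which also rose, were among those without a window. The 6 windows shown are those of Lsr and Cldn6, which fell, of the neighbours Cldn4 and Cldn3, of Crb3, the tested member with a CCGTTA match, and of Cldn5, which rose. Capitals mark CACCTG or its reverse complement CAGGTG, the E-box core recognised by Zeb and Snail repressors, and CCGTTA or TAACGG, the core recognised by Ovol proteins.
Lsr promoter (chr7:30973420-30973719, minus strand): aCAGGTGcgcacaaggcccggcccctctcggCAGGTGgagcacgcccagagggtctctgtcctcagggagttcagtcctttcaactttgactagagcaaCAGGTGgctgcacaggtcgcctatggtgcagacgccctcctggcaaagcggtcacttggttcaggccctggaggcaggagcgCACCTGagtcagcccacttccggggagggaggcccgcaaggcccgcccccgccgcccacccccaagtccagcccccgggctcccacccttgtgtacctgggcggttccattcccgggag
Cldn6 promoter (chr17:23679115-23679414, plus strand): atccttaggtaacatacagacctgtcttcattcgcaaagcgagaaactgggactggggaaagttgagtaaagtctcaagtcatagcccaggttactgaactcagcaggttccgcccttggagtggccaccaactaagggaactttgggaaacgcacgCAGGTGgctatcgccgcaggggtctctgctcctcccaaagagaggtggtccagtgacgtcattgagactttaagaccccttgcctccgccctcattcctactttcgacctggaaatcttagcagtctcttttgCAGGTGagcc
Cldn4 promoter (chr5:134946885-134947184, minus strand): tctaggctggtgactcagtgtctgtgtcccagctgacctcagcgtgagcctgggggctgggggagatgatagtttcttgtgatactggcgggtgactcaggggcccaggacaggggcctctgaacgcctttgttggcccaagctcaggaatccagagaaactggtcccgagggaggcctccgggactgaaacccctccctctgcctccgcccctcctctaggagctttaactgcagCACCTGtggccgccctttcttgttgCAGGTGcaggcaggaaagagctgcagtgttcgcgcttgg
Cldn3 promoter (chr5:134985964-134986263, plus strand): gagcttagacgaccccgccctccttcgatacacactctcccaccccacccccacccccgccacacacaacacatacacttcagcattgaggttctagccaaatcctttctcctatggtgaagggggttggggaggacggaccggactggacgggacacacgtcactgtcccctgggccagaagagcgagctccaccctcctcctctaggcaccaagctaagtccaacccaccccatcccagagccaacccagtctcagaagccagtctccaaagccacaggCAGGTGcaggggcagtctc
Crb3 promoter (chr17:57061951-57062250, plus strand): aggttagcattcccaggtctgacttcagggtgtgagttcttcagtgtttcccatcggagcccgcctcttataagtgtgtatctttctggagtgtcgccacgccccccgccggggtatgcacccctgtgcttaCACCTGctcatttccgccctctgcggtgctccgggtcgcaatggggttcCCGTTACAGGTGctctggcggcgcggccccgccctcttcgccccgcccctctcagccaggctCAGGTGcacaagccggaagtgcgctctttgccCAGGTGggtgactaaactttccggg
Cldn5 promoter (chr16:18776597-18776896, plus strand): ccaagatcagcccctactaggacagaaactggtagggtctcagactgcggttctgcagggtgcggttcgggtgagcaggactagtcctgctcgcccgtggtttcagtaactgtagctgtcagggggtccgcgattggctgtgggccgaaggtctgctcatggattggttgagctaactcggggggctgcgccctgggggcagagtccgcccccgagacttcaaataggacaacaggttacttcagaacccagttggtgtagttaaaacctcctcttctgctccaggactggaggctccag

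The Lsr window held 4 E-box cores, whose first bases lie at -249, -219, -151 and -69 from the start. Cldn6 held 2, Cldn4 held 2 on either side of its start, Cldn3 held 1, and Cldn5 held 0. The Crb3 window held 4 E-box cores and 1 CCGTTA, which runs straight into the CAGGTG that follows it. For Cldn7 the window of 1 of its 2 starts held 2 E-box cores, and for Cldn1 none was found in its window. E-box cores were found in 25 of 67 member windows (37.3%), against 20.2% of all 32851 windows of this length, and CCGTTA in 3 of 67 (4.48%), against 2.76%. Windows of nearby starts overlap, so the same site can count in several windows, as the CCGTTA of Crb3 did. Counted by gene, E-box cores were found in 20 of 46 members (43.5%), against 22.6% of all genes with a window. CCGTTA was found in 2 of 46 (4.35%), against 3.15%. The letters of the 2 motifs do not allow them to overlap, and the base composition of the windows was not compared.

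Among the 28 tested members with a window, 16 had an E-box core in at least 1 window. Their median difference was -0.13, with 12 of 16 below 0, and 7 lay below both controls on both knockout arrays. The 12 without one had a median of 0.03, with 5 below 0, and 3 lay below both controls. Of all 11963 tested genes 6662 had a difference below 0, and 29.9% lay below both controls in this way. Jam2 and Cldn8, which rose, had no window and are in neither group. The differences of all genes with an E-box core were not compared. These are counts of letters beside values, with no test. Patj and Pard3 carried 3 E-box cores each and had positive differences.

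**Figure D3:**
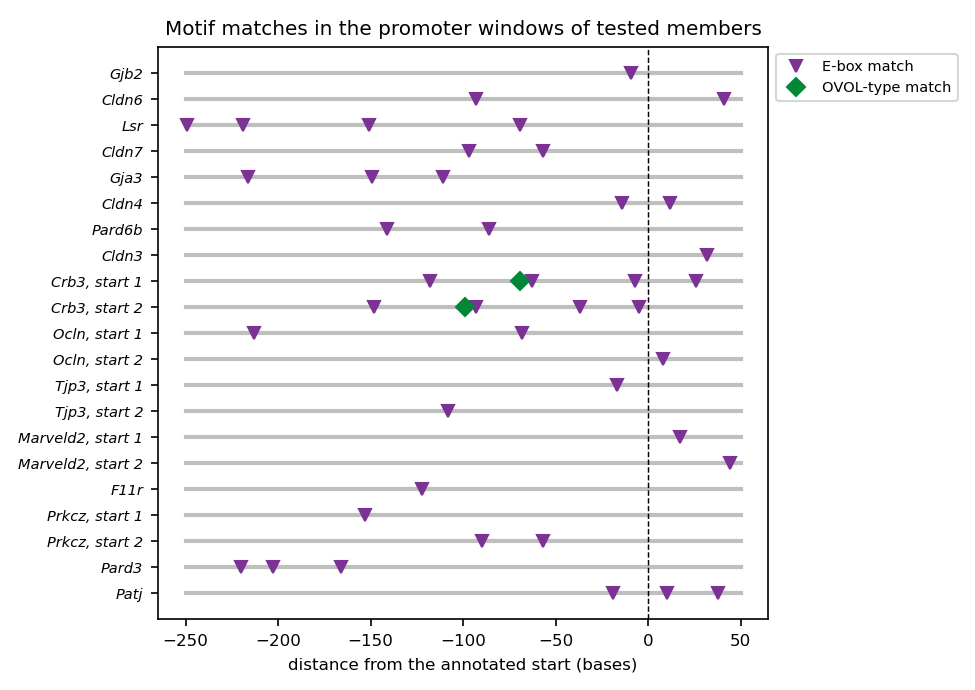
Position of motif matches in bases from the annotated start, for the 21 windows of tested members with a match, ordered from the lowest to the highest log2 difference of the gene. Triangles are E-box cores and diamonds CCGTTA cores. The 4 matches of Lsr lie before its start, those of Cldn4 on either side of it, and the diamonds are in the windows of Crb3.

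Of the occludin family and tricellular genes 1 of 4 fell and 3 did not pass. Lsr, the angulin that recruits tricellulin to the corners between cells, read 10.91 and 10.89 in controls, against 10.72 and 10.61 in knockouts. It fell by 0.23 ± 0.06 (1.17-fold, limma adjusted p = 0.0413). With 1 array left out at a time, the call held only without knockout replicate 1 (-0.29). It was lost at -0.22 without the first control array, at -0.24 without the second and at -0.18 without knockout replicate 2, and also with values as deposited, with median centring and with arrays shifted to equal pan-epithelial markers (limma adjusted p = 0.0782). Its partner Marveld2, the gene of tricellulin, differed by -0.03 ± 0.08 with overlapping groups. Ocln, the gene of occludin, read 10.83 and 10.80 in controls, against 10.71 and 10.74 in knockouts (difference -0.09 ± 0.06, 95% CI -0.21 to 0.04). Marveld3 read 9.85 and 9.99 against 9.99 and 9.92 (difference 0.04 ± 0.08), a sign that turned without control replicate 1 (-0.03).

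Jam2 and Cldn5, best known from blood vessels, rose in the knockout, beside stromal and basal epithelial markers that also rose. Jam2, an adhesion molecule of endothelial junctions, read 8.83 and 9.05 in controls, against 9.53 and 10.04 in knockouts. It rose by 0.84 ± 0.15 (1.79-fold, limma adjusted p = 0.00864). Leaving out 1 array at a time gave 0.59 to 1.09, each past the threshold, but limma's adjusted p was 0.0589 with a robust variance prior and 0.0759 with no variance trend. Cldn5, the main claudin of the endothelium, read 8.47 and 8.80 in controls, against 9.11 and 9.42 in knockouts. It rose by 0.63 ± 0.14 (1.55-fold, limma adjusted p = 0.0218), and did not pass without control replicate 1 (0.47, limma adjusted p = 0.133).

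Jam3, the binding partner of Jam2, read 6.58 and 7.08 in controls, against 7.41 and 7.52 in knockouts, under the filter on every array. It was not tested, and its group means differed by 0.63. The connexin genes of arterial endothelium, Gja4 and Gja5, were also under the filter, with differences of 0.05 and 0.08 and overlapping groups. F11r, the junctional adhesion molecule of epithelium, read 11.21 and 11.33 in controls, against 11.25 and 11.31 in knockouts. Its difference was 0.01 ± 0.06 (95% CI -0.12 to 0.14), and the sign turned with median centring (-0.03).

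Of 15 endothelial markers 13 had a difference above 0, with a median of 0.45. Of the 14 tested, 4 rose (Cdh5, Emcn, Esam and Kdr) and 0 fell, and Erg was under the filter. Kdr, Ramp2, Robo4, Tek and Tie1 passed the filter only through the knockout arrays, where they were high, and of the 9 with both group means over the filter 3 rose. The summed signal of the list was 6565 and 7693 in controls, against 8661 and 10513 in knockouts. Of 13 tested fibroblast markers 12 rose, with sums of 13549 and 14199 against 29085 and 36046. Relative to the mean of the endothelial markers on the same array, Cldn5 lay at -0.07 and -0.04 in controls, against 0.10 and 0.14 in knockouts. Jam2 lay at 0.29 and 0.22 against 0.52 and 0.75. Of the other marker lists, 4 of 5 tested adipocyte markers rose (Lpl, Fabp4, Cd36 and Pparg), and Plin1 did not pass (-0.08). Adipoq, Lep and Cidec were under the filter, with differences of 0.11, 0.02 and -0.02. Among luminal markers 2 of 10 rose, and among basal markers 6 of 10 rose and 1 fell, with a median of 0.57. Among lymphocyte markers 2 of 4 fell (3 of the 4 over the filter only through the controls), and among macrophage markers 1 of 4 fell. Of skeletal muscle markers 0 of 3 passed limma's threshold (0 at an unadjusted p under 0.05). The part of these cell types in the rise of Cldn5 and Jam2 was not tested.

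**Figure D4:**
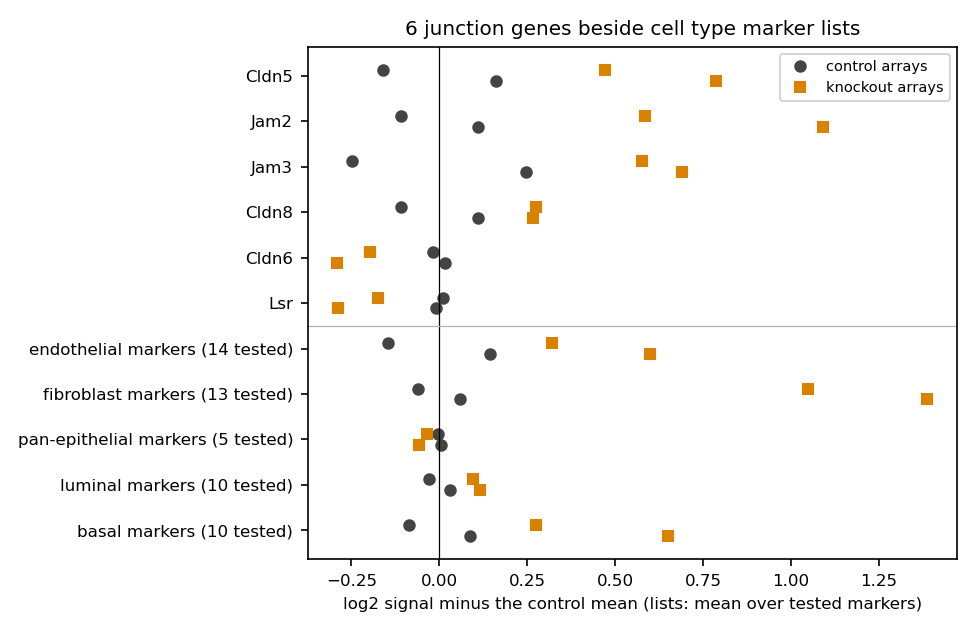
Log2 signal on each array minus the control mean, for 6 junction genes and for the mean of 5 marker lists (circles, controls; squares, knockouts). Cldn5, Jam2 and Jam3 and the endothelial, fibroblast, basal and luminal lists lie right of the controls on both knockout arrays. The luminal list does so by a mean of 0.11, while the pan-epithelial list stays within 0.06 of its control mean.

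Of the 3 junctional scaffold genes 0 passed limma's threshold, and 0 had an unadjusted p under 0.05. Tjp1, which links claudins to actin, read 11.43 and 11.55 in controls, against 11.52 and 11.59 in knockouts (difference 0.06 ± 0.06, 95% CI -0.07 to 0.20). Tjp3, its relative, read 10.26 and 10.16 against 10.15 and 10.19 (difference -0.04 ± 0.07, 95% CI -0.19 to 0.11). Cgn, the gene of cingulin, read 9.20 and 9.39 against 9.35 and 9.39 (difference 0.08 ± 0.09, 95% CI -0.13 to 0.29). The groups overlapped for each of the 3, and without control replicate 1 the signs of Tjp3 and Cgn turned (0.01 and -0.02).

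Polarity genes showed small differences in both directions. Of 9 tested members 0 passed limma's threshold, 2 had an unadjusted p under 0.05, and the median was -0.06. In the Scribble complex Llgl2 read 9.34 and 9.44 in controls, against 9.25 and 8.99 in knockouts (difference -0.27 ± 0.11, limma adjusted p = 0.14), and it passed without knockout replicate 1 (-0.40). Scrib read 9.35 and 9.45 against 9.24 and 9.15 (difference -0.21 ± 0.09, limma adjusted p = 0.171). Both basolateral genes were thus lower on each knockout array than on either control.

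In the Par complex Prkci, an atypical protein kinase C gene, read 11.73 and 11.82 in controls, against 11.83 and 11.93 in knockouts (difference 0.11 ± 0.06, limma adjusted p = 0.275). The scaffold gene Pard3 read 10.18 and 10.29 against 10.25 and 10.34 (difference 0.06 ± 0.07). Pard6b was -0.17 ± 0.09 and Prkcz, the other atypical kinase gene, 0.02 ± 0.10, both with overlapping groups. Averaging the 2 probe sets of Prkcz turned its sign (-0.05).

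In the Crumbs complex Mpp5, the adaptor gene, read 10.60 and 10.68 in controls, against 10.53 and 10.63 in knockouts (difference -0.06 ± 0.07). Patj, a scaffold gene bound by Mpp5, was 0.15 ± 0.07 (limma adjusted p = 0.208), with both knockout arrays above the controls. Crb3, the epithelial Crumbs gene, read 9.10 and 9.16 against 9.07 and 8.99 (difference -0.10 ± 0.09, 95% CI -0.31 to 0.11). Crb1 and Crb2 were under the filter, with differences of -0.03 and -0.08.

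Of 16 connexin genes 6 were tested, and 0 passed limma's threshold, with 2 at an unadjusted p under 0.05. Gja1, the main connexin of mammary basal cells, read 11.32 and 11.38 in controls, against 11.22 and 11.20 in knockouts. The difference was -0.14 ± 0.05 (95% CI -0.26 to -0.02, limma adjusted p = 0.136). Both knockout arrays lay below the controls. Of 10 tested basal markers 6 rose (Acta2, Myh11, Cnn1, Mylk, Oxtr and Lgr5) and Trp63 fell (-0.36), with a median of 0.57. The basal keratins Krt5 (-0.02), Krt14 (0.43) and Krt17 (0.15) did not pass. Summed signals of the list were 22907 and 25090 in controls, against 27881 and 34912 in knockouts. The part of cells with these markers in the result was not tested.

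Gjb2, a connexin of luminal and skin epithelium, depended on 1 array. It read 8.61 and 8.94 in the controls and 9.14 on knockout replicate 1, but 7.04 on knockout replicate 2. The difference was -0.69 ± 0.50 (95% CI -1.81 to 0.43, limma adjusted p = 0.437). It turned to 0.36 without knockout replicate 2, and to -1.74 without the other. It passed on median-centred values (-0.67) and on the deposited scale (-0.62), in fits that took the variance as known from the trend. Such fits leave the gap between the knockout arrays out of the SE, so these passes carry little weight. The 4 tested markers of the epidermis list had a median of -0.14. Of these Krt6a fell (-0.93), and Krt1 (-0.12), Krt10 (-0.16) and Ivl (-0.02) did not pass. The sum over the list was 2691 and 2685 in controls, against 2063 and 1819 in knockouts. Whether skin in the sample had a part in the values of Gjb2 and Cldn1 was not tested. Gja3, a neighbour of Gjb2 in the genome, did not show the drop, at 8.88 on knockout replicate 1 and 9.05 on knockout replicate 2. Gjb6, the other neighbour, read 6.85 and 6.66 on these arrays. It was under the filter and too dim to show whether it shared the drop.

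Gjd3 read 9.31 and 9.16 in controls, against 8.86 and 9.09 in knockouts (difference -0.26 ± 0.11, limma adjusted p = 0.176), and it passed without knockout replicate 2 (-0.37). Gjc1, known from smooth muscle and developing vessels, read 9.18 and 9.22 against 9.27 and 9.35 (difference 0.11 ± 0.09). The difference was -0.20 for Gja3, a lens connexin, and -0.02 for Gja6. The 10 connexins under the filter were Gja4, Gja5, Gja10, Gjb1, Gjb5, Gjb6, Gjc3, Gjd2, Gjd4 and Gje1, with differences from -0.38 to 0.41. The highest was that of Gjc3, a glial connexin, at 6.72 and 6.76 in controls and higher on both knockout arrays. Of 5 Schwann cell markers 2 rose and 2 had a difference below 0, among them Sox10 (-0.23, below both controls on both knockout arrays), with a median of 0.14.

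Members next to each other in the genome mostly had differences of the same sign, though in several pairs a gene was under the filter. Cldn4 and Cldn3 had differences of -0.20 and -0.16, and Ocln and Marveld2 of -0.09 and -0.03. Cldn1 lay at -0.46 beside -0.23 for Cldn16, and Cldn6 at -0.24 beside -0.19 for Cldn9, with both neighbours under the filter. Gja3, Gjb2 and Gjb6 lay at -0.20, -0.69 and -0.06, with Gjb6 under the filter and Gjb2 resting on 1 array. Only Cldn8 and its neighbour Cldn17, which was under the filter, had opposite signs (0.27 and -0.23). Cldn22 and Cldn24, both under the filter, lay at -0.12 and -0.01.

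Knockout replicate 2 was the array farther from the controls for most members that did not overlap. This held for 11 of the 14 lower members and 5 of the 6 higher ones, and across all tested genes for 72.6% of the lower and 66.0% of the higher genes without overlap.

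A list of 55 further junction and polarity genes outside the rule gave 54 measured and 46 tested genes, of which 2 rose, 1 fell and 43 did not pass, with a median of 0.02. Pard6g, a Par complex adaptor gene like Pard6b, read 9.60 and 9.69 in controls, against 9.21 and 9.34 in knockouts and fell by 0.37 ± 0.09 (limma adjusted p = 0.0247), but it passed neither without control replicate 1 (-0.41) nor without control replicate 2 (-0.33). Mpp7, a polarity scaffold gene, read 10.13 and 10.05 against 10.30 and 10.44 and rose by 0.28 ± 0.07 (limma adjusted p = 0.0395), a call that was lost at 0.32 and 0.24 without either control array and at 0.21 without knockout replicate 2. Esam, an endothelial adhesion gene that is also among the endothelial markers, rose by 0.61 ± 0.13 (limma adjusted p = 0.0187), but not without control replicate 1 (0.50). Each of the 3 lay on 1 side of the controls on both knockout arrays.

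Across the 16 alternatives run for each gene (15 for Cldn5), Jam2 passed the threshold in 14, Cldn5 in 13, Cldn8 in 11, and Cldn6 and Lsr in 7 each. None of these 5 changed sign. Cldn4 passed in 7 of 16 and Cldn1 in 5 of 16 without passing in the fit reported here. Most passes of Cldn1 came from fits that took the variance as known from the trend, which leave its own spread between arrays out.

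**Figure D5:**
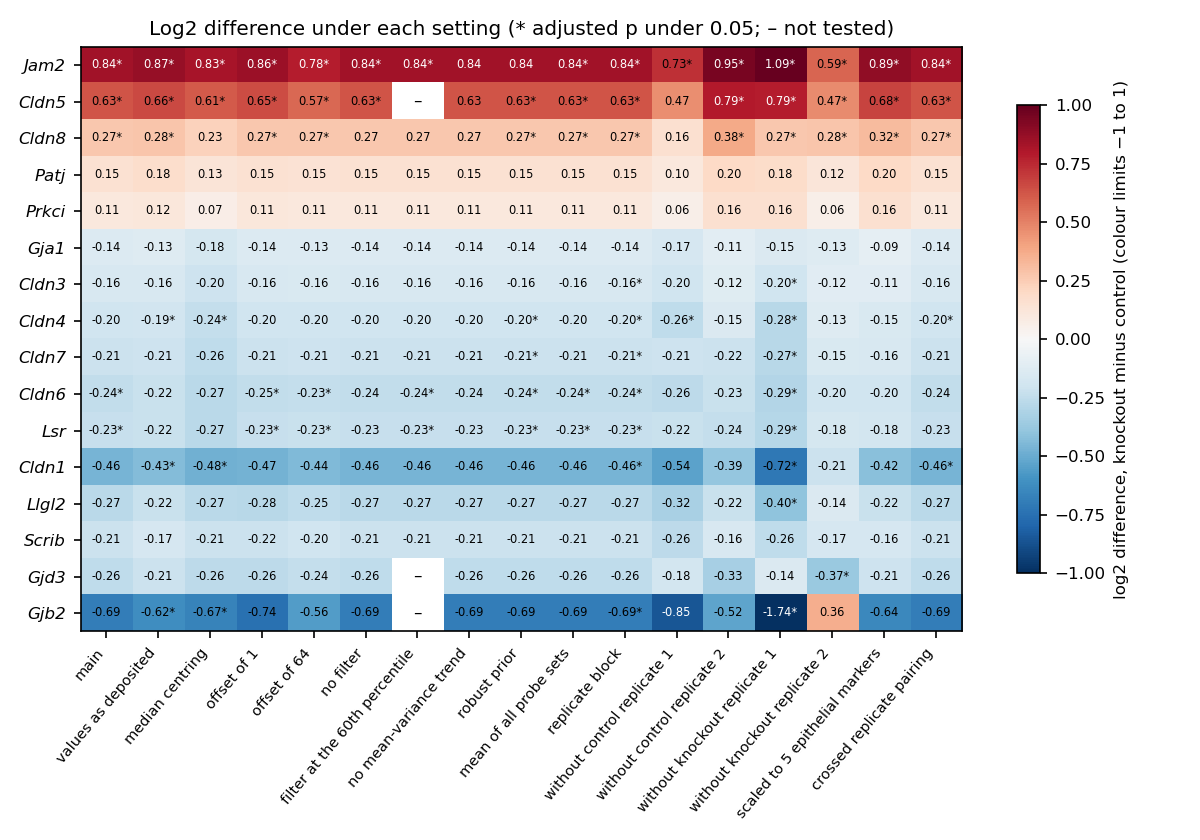
Log2 difference of 16 members (rows) under each setting (columns), coloured from blue, lower in the knockout, to red, higher; an asterisk marks an adjusted p under 0.05 and a dash a gene not tested. Jam2 carries an asterisk in most columns, and Gjb2 turns from -1.74 to 0.36 between the columns that leave out a knockout array.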

How the data were processed

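The authors deposited 1 linear signal intensity per probe set and array for 35556 probe sets. Expression Console (Affymetrix) 1.1.1 and PLIER 2.0 appear in the submitters' processing notes. The sources used here do not state the background correction, the normalization between arrays or the genome build. The platform annotation gave 1 symbol to 21789 of them. Each gene was represented by its brightest probe set, which left 19938 genes. Cldn10 and Prkcz had 2 probe sets.

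Values were taken as log2(signal + 16) and quantile normalized in limma version 3.58.1 (R version 4.3.3). Genes with a mean under the 40th percentile (7.97 on this scale, near 235 in signal) were not tested. Groups were compared by lmFit and a trended eBayes, with two-sided p-values and Benjamini-Hochberg adjustment over 11963 genes at 0.05. The fit was tested on simulated data. With no detection calls, dim probe sets could not be told from background, and folds of dim genes may be understated. The number of arrays limits the precision. Levels of different probe sets were not compared.

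The members, role groups and lists were chosen with earlier results of these data known. Named in full were members past the threshold, the 3 brightest tested members of each role group and that with the largest difference, members under the filter with a difference over 0.5, and further junction genes past the threshold. Other members are named with their difference, and those of them given by array were chosen after their values were seen.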

Additional observations from a re-analysis of the deposited data

How the results depend on the processing

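Arrays were also used as deposited, median centred, with offsets of 1 and 64, with no filter, a filter at the 60th percentile, no variance trend, a robust prior, the mean of all probe sets, a replicate block, and without each array. After seeing the data, a scaling to 5 pan-epithelial markers and a crossed pairing were added. The main counts of 3 higher and 2 lower members became 1 higher with the filter at the 60th percentile, 0 and 0 without the trend, 2 higher and 0 lower with no filter, 2 higher (Jam2 lost) and 4 lower with the robust prior, 7 lower with the replicate block and 0 lower with the scaling to epithelial markers. The lower members were Cldn1, Cldn4 and Gjb2 in place of Cldn6 and Lsr with values as deposited (3 higher, 3 lower) and on median-centred values (2 higher, 3 lower). Leaving out 1 array gave 1 to 3 higher and 0 to 8 lower, where the lone array left in a group is assumed to vary like the other group. The median of the tested members, -0.06, became -0.0088 with the scaling to epithelial markers, which split all calls into 1006 higher and 353 lower, against 753 and 532. The cause was not tested in these cases, except that a filter changes the genes tested.

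Deviations of same-numbered arrays were only weakly and negatively correlated (r = -0.196 across genes, which are not independent), and no label ties these arrays. The replicate block called 2246 genes in all and 10 members, among them the 5 called before. The crossed pairing called 1203 genes and 3 higher and 2 lower members, the lower being Cldn1 and Cldn4, while Cldn6 (limma adjusted p = 0.0683) and Lsr (0.0714) lost their call. Fits as deposited, with median centring, with the replicate block and without a knockout array took the variance as known from the trend.

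Signs turned for small differences: F11r (-0.0327 with median centring), Gja6 (0.0335 as deposited, 0.0275 scaled to epithelial markers), Marveld2 (0.0025 and 0.0221), Prkcz (-0.0472 with the mean of probe sets) and Tjp3 (0.006 scaled to epithelial markers). Leaving out 1 array gave -0.017 to 0.17 for Cgn, -0.0665 to 0.0839 for Cldn12, -0.2626 to 0.0736 for Cldn15, -0.0271 to 0.2257 for Cldn20, -0.0463 to 0.0675 for F11r, -0.093 to 0.053 for Gja6, -1.7363 to 0.3601 for Gjb2, -0.0631 to 0.0124 for Marveld2, -0.0324 to 0.1038 for Marveld3, -0.0757 to 0.1096 for Prkcz and -0.0907 to 0.0078 for Tjp3. The other tested members kept their direction under every alternative run. Dim signal limits the 23 members under the filter.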
